A study of Mus musculus with 2 samples.

Results

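Histone genes encode the proteins around which nuclear DNA is wound. They were taken here as the non-control probes whose gene name on the array begins with Hist1h, Hist2h, Hist3h or Hist4h, called replication-dependent below, or with H1f, H2af or H3f, called variant below. This rule, which used names alone, found 47 of the 27667 gene names on the array, measured by 67 of its 41174 probes. Of these, 44 probes stood for 34 replication-dependent genes and 23 probes for 13 variant genes.

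The study set immature B cells that recognise a self antigen against immature B cells that do not. Two-colour Agilent mouse arrays were used, and each of the 2 arrays held RNA of autoreactive cells labelled with Cy5 and RNA of non-autoreactive cells labelled with Cy3. Bone marrow was pooled and sorted for B220+ cells lacking CD23, CD43 and IgD, and each sample's 0.5 ug of RNA went through a low-input linear amplification kit. Autoreactive cells came from BALB.B mice of the H-2b haplotype that carried the 3-83Igi receptor genes and lacked Rag1 (Rag1-/-). Non-autoreactive cells came from BALB/c mice of the H-2d haplotype that carried the same 3-83Igi genes, with no Rag1 disruption listed. Every cell in both groups therefore came from a 3-83Igi animal. Strain, haplotype, the Rag1 disruption and the dye all followed the groups and cannot be told apart from autoreactivity. Neither the animals' age nor the number pooled is given in the sources used here, and both arrays lay on 1 slide. The labels number the autoreactive pools only, so p-values measure the spread between these 2 arrays.

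Replication-dependent histone genes lie in clusters and are transcribed mainly in S phase, when new DNA has to be packaged. Their mRNAs are unusual in ending with a stem-loop, bound by the protein Slbp, in place of a poly(A) tail. H2A, H2B, H3 and H4 form the nucleosome core, and linker histone H1 binds where DNA enters and leaves it. Variant histones are made outside S phase too, mostly from polyadenylated mRNAs. They mark particular chromatin such as promoters, DNA breaks or the inactive X chromosome. Immature B cells in bone marrow have largely left the cycle after the proliferating pre-B stage. The labels name the amplification kit and not its primer, so how fully mRNAs without a poly(A) tail were copied is unknown.

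The share of spots well above background ran from 54.1% to 57.4% over the channels, and no spot was saturated. H2-Ea, an MHC class II gene that H-2b mice do not transcribe, was lower in the autoreactive channel by log2 ratios of -5.22 and -5.26 on arrays 1 and 2 (limma adjusted p = 0.000196), which checks the labels. All 12 B lineage markers were well above background in every channel, and 3 of them were called higher and 3 lower, beside 3.48% and 2.61% of all genes tested. Among these were the B cell surface gene Ms4a1 at -3.61, the transcription factor gene Pax5 at -1.05, the signalling adaptor gene Blnk at 1.08 and the IgM heavy chain gene Ighm at 1.00. The 3 called higher had mean log2 levels above 16, a bright range described below. None of the 3 was called in the ratios the authors deposited, with Blnk at 0.76 (limma adjusted p = 0.0588) and Ighm at 0.41 (adjusted p = 0.265). The 3 called lower were called there too. Markers of other cells were also detected. The medians of plasmacytoid dendritic and erythroid markers were below 0 on both arrays. Those of T and NK cell and of myeloid markers were near 0 on array 1 and below 0 on array 2. Over 8 plasmacytoid dendritic cell markers the median log2 ratios of arrays 1 and 2 were -0.78 and -2.66, and 1 of the 8 was called lower. Their summed level was 14.22 and 13.85 in the autoreactive channels and 14.83 and 15.35 in the non-autoreactive channels. For 14 T and NK cell markers the medians were -0.07 and -1.13, with 2 called lower, and the summed levels were 14.41 and 13.85 against 14.48 and 14.59. For 13 myeloid markers the medians were 0.06 and -0.86, with 1 called lower and summed levels of 19.08 and 18.89 against 18.83 and 19.31. For 10 erythroid markers the medians were -0.46 and -0.50, with 2 called lower and summed levels of 15.12 and 14.78 against 15.55 and 15.30. The part of these cells in the histone ratios below was not tested. In pooled cells, fewer cells of a type and less RNA per cell cannot be told apart.

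Of the 67 histone probes, 60 were tested because either channel or both exceeded background clearly on each array, and 58 of them did so in all 4 channels. The remaining 7 probes did so in no channel. They covered 33 of the 34 replication-dependent genes and 11 of the 13 variant genes. The genes without a tested probe were Hist1h1t, the testis linker histone, H1fnt, a linker histone of spermatids, and H2afy2, which encodes macroH2A2. A probe was called when limma's p-value, adjusted over all 22623 probes tested, was below 0.05. Among the 60 histone probes 12 were called higher in autoreactive cells and none lower, where 3.15% of all tested probes were called higher and 2.17% lower. At an unadjusted p below 0.05, 20 of the 60 were higher and 8 lower, where 11.8% of all tested probes were higher and 11.3% lower. Limma with a trended, robust variance also called 12 histone probes higher and 0 lower, and 741 higher and 537 lower among all probes. Taking each gene by its brightest probe, 6 of 33 replication-dependent and 2 of 11 variant genes were higher, against 3.48% of all 15112 genes, and 0 were lower, against 2.61%. The median log2 ratio was -0.071 over the replication-dependent genes and 0.19 over the variant genes, beside -0.0018 over all genes tested.

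The calls followed the brightness of the probe. Of the 12 called histone probes, 10 had a mean log2 level above 16, where 16 histone probes lay. Among all 260 probes this bright on the array, 52.7% were called higher and 1.15% lower, and their median log2 ratio was 0.69, so the share of called histone probes there was close to that of any bright probe. The bright histone probes had a median of 0.78. In the ratios the authors deposited, which the scanner program had normalized in its own way, the same 16 probes had a median of 0.32 and all 260 probes one of 0.30, and none of the 16 was called. When each ratio was centred on the running median of probes near it in brightness, the bright histone probes had a median of 0.008. Below this brightness 2 of 44 histone probes were called higher, against 2.57% of all such probes, and 0 were called lower, against 2.18%, with 7 higher and 8 lower at an unadjusted p below 0.05, where 11.1% of all such probes were higher and 11.4% lower. The median over these 44 was -0.082. Both dimmer calls were linker histone probes, of Hist1h1c and Hist1h1d, and these were the only histone probes called with the deposited ratios too, where 1.89% of all probes were called higher and 1.78% lower.

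**Figure D1:**
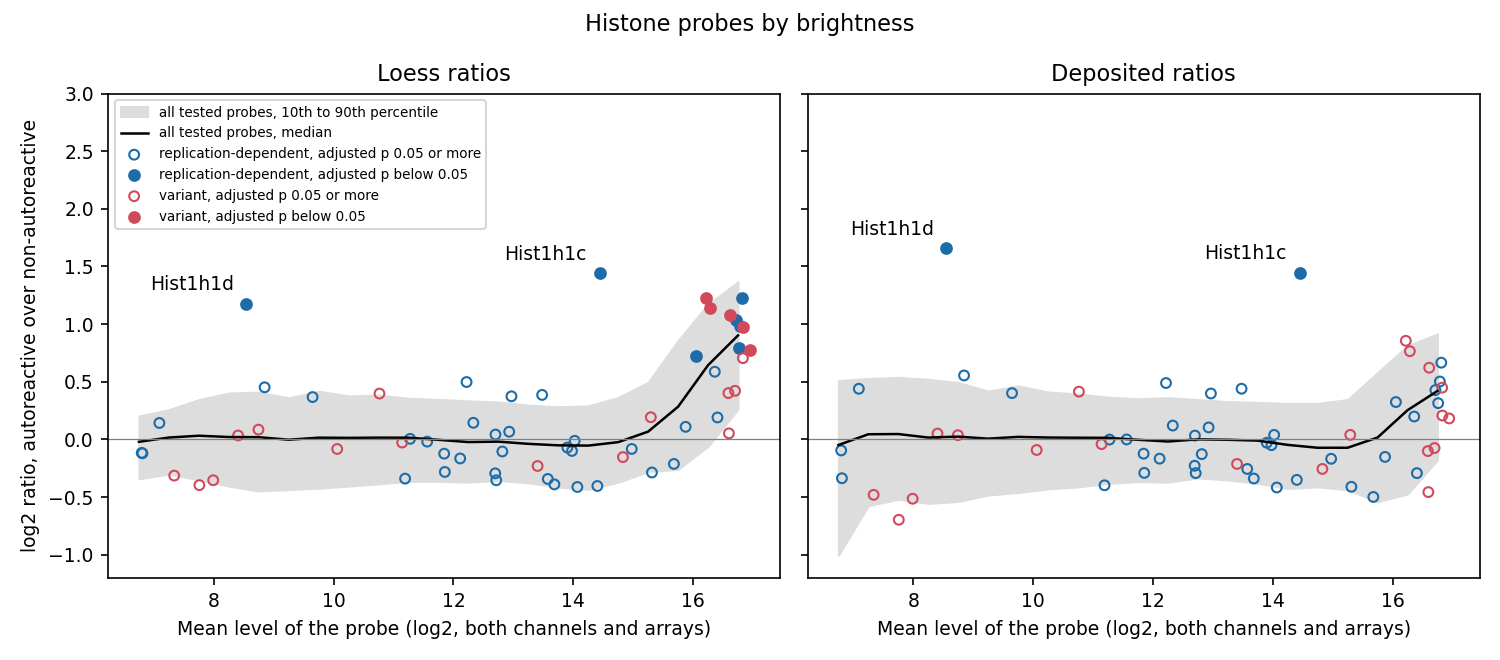
Log2 ratio of autoreactive over non-autoreactive for the 60 tested histone probes (points; filled where limma's adjusted p was below 0.05) against the probe's mean log2 level, with loess ratios on the left and the authors' deposited ratios on the right. The line and grey band give the median and the 10th to 90th percentile of all tested probes in steps of brightness. The band bends upward above a level of 16, where 10 of the 12 filled points on the left lie, while Hist1h1c and Hist1h1d stand above the band in both panels.

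Among the linker histones, Hist1h1c and 1 probe of Hist1h1d were higher. Hist1h1c, now named H1f2 and encoding H1.2, one of the common somatic linker histones, had normalized log2 levels of 14.99 and 15.36 in the autoreactive channels of arrays 1 and 2. In the non-autoreactive channels its levels were 13.28 and 14.18. Both autoreactive values lay above both non-autoreactive ones. The log2 ratios of arrays 1 and 2 were 1.70 and 1.18, a mean of 1.44 ± 0.16 (SE, n = 2 arrays) or 2.71-fold, with an adjusted p of 0.00933 by limma. This ranked 88th from the top among the 22623 probes tested. The deposited ratios gave 1.44 (adjusted p = 0.0234), and the brightness-centred ratios gave 1.48 (adjusted p = 0.00696). When the channels were fitted as separate samples, which drops the pairing within an array, the adjusted p was 0.129. The probe lies at chr13:23105951-23106010 in the scanner files' own coordinates, whose genome build is not named there, and lists 1 RefSeq transcript.

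Hist1h1d, now H1f3, which encodes H1.3, gave unequal values on its probes. Its dimmer tested probe had log2 levels of 8.75 and 9.49 in autoreactive and 7.32 and 8.57 in non-autoreactive cells, again without overlap. Its log2 ratios of 1.43 and 0.92 had a mean of 1.17 ± 0.16 (SE, n = 2 arrays; 2.26-fold, limma adjusted p = 0.0159). The deposited ratios gave 1.66 for it (adjusted p = 0.0463), and the separate-channel fit left an adjusted p of 0.344. The brighter probe starts 1751 bases away, at 22921576 against 22923327 on chromosome 13 in the files' coordinates. It had levels of 13.14 and 13.17 against 12.95 and 12.61, which did not overlap either, but its ratios of 0.19 and 0.56 averaged 0.37 ± 0.14 (limma adjusted p = 0.195). A further probe named Hist1h1d lies on the opposite strand and was not well above background in any channel. The dimmer, called probe lies downstream of the brighter one on the plus strand, and whether both read the same RNA was not tested.

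The other replication-dependent linker genes were not called. Hist1h1b, encoding H1.5, had levels of 13.85 and 13.13 in autoreactive and 14.04 and 13.71 in non-autoreactive cells, with a mean log2 ratio of -0.39 ± 0.15 (limma adjusted p = 0.186). Hist1h1e, encoding H1.4, had levels of 13.40 and 13.41 against 13.52 and 13.98 and a ratio of -0.34 ± 0.15 (adjusted p = 0.242). For Hist1h1e both autoreactive values were below both others, and for Hist1h1b the groups overlapped. Hist1h1a, encoding H1.1, had ratios of -0.28 and 0.04 on arrays 1 and 2. Among 6 linker probes of the replication-dependent class, 2 were thus called higher and 0 lower, beside 3.15% and 2.17% of all probes. With an unadjusted p below 0.05, 3 were higher and 1 lower, beside 11.8% and 11.3% of all probes. The ratios of Hist1h1c, Hist1h1b, Hist1h1e and the dimmer Hist1h1d probe were lower on array 2 than on array 1, as were the medians of the other cells' markers, while those of Hist1h1a and the brighter Hist1h1d probe were higher on array 2. A link between them was not tested.

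**Figure D2:**
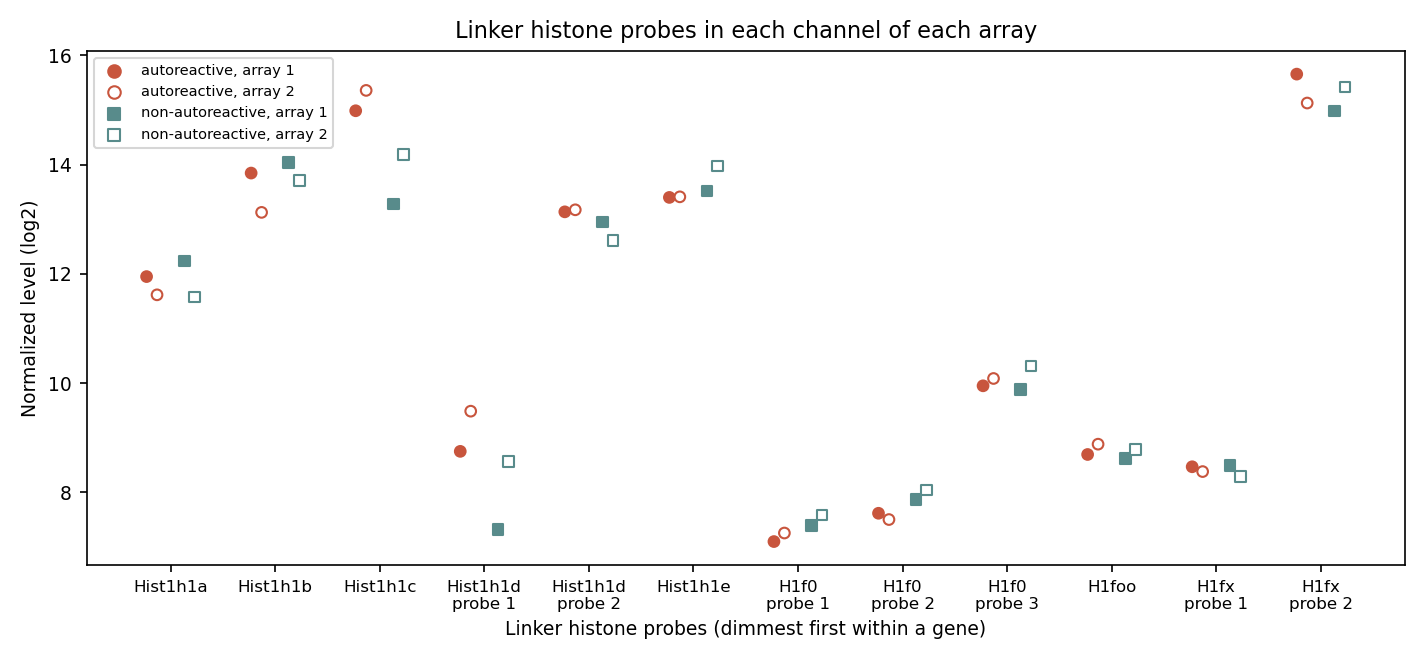
Normalized log2 level of each tested linker histone probe in the autoreactive channels (circles) and the non-autoreactive channels (squares) of array 1 (filled) and array 2 (open). Hist1h1c (14.99 and 15.36 against 13.28 and 14.18) and the dimmer Hist1h1d probe (8.75 and 9.49 against 7.32 and 8.57) lie higher in the autoreactive channels without overlap. Levels of different probes cannot be set against each other.

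The promoters of the linker genes are shown because these neighbouring genes, alike in their proteins, differed in their ratios. H1 promoters are known for an AAACACA element far upstream and a CCAAT box nearer the start. The sequences are the 130 bases before the annotated start, from RefSeq on GRCm38.p6, with AAACACA and CCAAT on either strand in capitals:
Hist1h1a: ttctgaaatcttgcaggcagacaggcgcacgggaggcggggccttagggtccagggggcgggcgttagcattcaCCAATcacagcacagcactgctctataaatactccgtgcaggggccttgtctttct
Hist1h1b: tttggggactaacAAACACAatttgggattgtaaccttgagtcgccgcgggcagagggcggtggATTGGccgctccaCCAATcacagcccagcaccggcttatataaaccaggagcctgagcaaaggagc
Hist1h1c: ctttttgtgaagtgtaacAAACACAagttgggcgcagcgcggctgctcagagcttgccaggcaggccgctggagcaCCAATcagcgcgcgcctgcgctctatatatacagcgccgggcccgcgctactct
Hist1h1d: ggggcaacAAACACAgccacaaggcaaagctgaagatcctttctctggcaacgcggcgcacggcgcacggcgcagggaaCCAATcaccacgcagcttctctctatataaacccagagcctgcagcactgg
Hist1h1e: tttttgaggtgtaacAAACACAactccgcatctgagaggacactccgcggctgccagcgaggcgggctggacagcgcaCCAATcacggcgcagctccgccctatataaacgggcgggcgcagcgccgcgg
Hist1h1t: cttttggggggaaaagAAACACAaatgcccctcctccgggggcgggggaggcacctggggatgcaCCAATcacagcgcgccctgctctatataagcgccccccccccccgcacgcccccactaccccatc
They lie at chr13:23763538-23763667 on the plus strand for Hist1h1a, chr13:21780626-21780755 on the minus strand for Hist1h1b, chr13:23738677-23738806 on the plus strand for Hist1h1c, chr13:23554902-23555031 on the plus strand for Hist1h1d, chr13:23622559-23622688 on the minus strand for Hist1h1e and chr13:23695681-23695810 on the plus strand for Hist1h1t. AAACACA was found in 5 of the 6, first at -112 in Hist1h1c, -122 in Hist1h1d, -115 in Hist1h1e, -117 in Hist1h1b and -114 in Hist1h1t, and not in Hist1h1a. CCAAT was found in all 6, between -66 and -51. Of 32851 promoters of the same length, 2.98% held AAACACA, 22.4% held CCAAT and 0.581% held both, searched on both strands. In the 6 sequences shown the matches do not overlap. Hist1h1c, which was called, and Hist1h1d, called at its dimmer probe alone, share both motifs with Hist1h1b and Hist1h1e. Hist1h1b and Hist1h1e were not called. Elsewhere among the 37 histone genes with a promoter in the table, AAACACA was found in 3 of 22 promoters of replication-dependent core genes and in none of those of the variant H1 genes, and CCAAT in 19 of those 22. TATAAA, searched on both strands, was found in 6.83% of all promoters and in 4 of the 6 of the H1 genes. A match is a description of the letters alone.

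Of the core histones, H2A and H3 held all the probes brighter than a log2 level of 16 in the replication-dependent class, and all its core calls lay there. H2A held 4 called probes of 14, and each of the 4 had a mean log2 level above 16. Hist2h2ac had levels of 17.47 and 17.39 in autoreactive and 16.26 and 16.15 in non-autoreactive cells, with no overlap and log2 ratios of 1.22 and 1.24. Its mean of 1.23 ± 0.12 (SE, n = 2 arrays; limma adjusted p = 0.00696) became 0.67 with the deposited ratios (adjusted p = 0.0811), and it was the one histone probe still called when channels were fitted separately (adjusted p = 0.0361). Hist1h2aa, which encodes the H2A of testis chromatin, had levels of 17.25 and 17.23 against 16.29 and 16.13, a mean ratio of 1.03 (adjusted p = 0.0107) and a deposited ratio of 0.43. The brightest probe of Hist1h2af had levels of 17.29 and 17.27 against 16.36 and 16.24, a ratio of 0.98 (adjusted p = 0.0122) and a deposited ratio of 0.50, and that of Hist3h2a had 16.44 and 16.40 against 15.74 and 15.64, a ratio of 0.73 (adjusted p = 0.0286) and a deposited ratio of 0.32. These 4 lay in a range where all 260 probes had a median log2 ratio of 0.69 and 52.7% were called higher. After centring by brightness, their ratios were 0.36, 0.18, 0.11 and 0.23 in the same order, and none was called. The 10 uncalled H2A probes ran from -0.29 for Hist1h2ab to 0.39 for a further Hist3h2a probe.

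H2B, the partner of H2A in the nucleosome, held no called probe among 10, with a median log2 ratio of -0.04. At an unadjusted p below 0.05, 2 were higher and 1 lower, beside 11.8% and 11.3% of all probes, and the trended variance called 0. Hist3h2ba had levels of 12.42 and 12.51 in autoreactive and 11.80 and 12.14 in non-autoreactive cells, without overlap, and a ratio of 0.50 ± 0.13 (limma adjusted p = 0.0930). Hist1h2ba, the testis H2B that lies beside Hist1h2aa, had levels of 12.69 and 12.75 against 12.74 and 12.62 and a ratio of 0.04. Hist3h2bb at -0.01 and Hist1h2bk at -0.07 were likewise close to 0. None of the H2B probes was brighter than a log2 level of 16. Hist1h2be exceeded background clearly in the non-autoreactive channels alone, at levels of 6.82 and 6.92, with 6.67 and 6.83 in the autoreactive channels.

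H3, whose tail carries many of the known chromatin marks, had 3 probes, of which 1 was called. Hist2h3c1 had levels of 17.25 and 17.07 in autoreactive and 16.21 and 16.52 in non-autoreactive cells, which did not overlap. Its ratio of 0.79 ± 0.16 (limma adjusted p = 0.0453) was 0.31 with the deposited values and -0.08 after centring by brightness. Hist1h3d had levels of 16.77 and 16.54 against 15.98 and 16.15 and a ratio of 0.59 (adjusted p = 0.0810), which was 0.20 with the deposited values and -0.13 after centring by brightness. Hist1h3a, a dimmer probe, had a ratio of 0.005. The probes of Hist2h2ac, Hist2h3c1, Hist1h3d and the brightest of Hist1h2af each list several RefSeq transcripts, since these copies are near-identical, so their signal cannot be assigned to 1 gene. The files place the Hist2h2ac probe on the plus strand, whereas RefSeq has that gene on the minus strand, so its name is uncertain too.

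H4, the most conserved core histone, was below 0 on both arrays for all 7 tested probes, and none was called. Of all 22623 tested probes, 7687 were below 0 on both arrays. Several H4 probes, that of Hist1h4a among them, list more than 1 RefSeq transcript, so their signal cannot be assigned to 1 gene. Their log2 ratios ran from -0.41 for Hist1h4a to -0.10 for Hist4h4, with a median of -0.29 and adjusted p-values of 0.128 to 0.641. At an unadjusted p below 0.05, 3 of the 7 were lower, against 11.3% of all probes, and the trended variance called 0. Hist1h4a had levels of 13.87 and 13.85 in autoreactive and 14.35 and 14.19 in non-autoreactive cells, which did not overlap. The H4 median was -0.35 with the deposited ratios and -0.33 after centring by brightness. With each array centred on its median in place of loess it was 0.66, a setting that moved the median of all probes to 0.54.

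**Figure D3:**
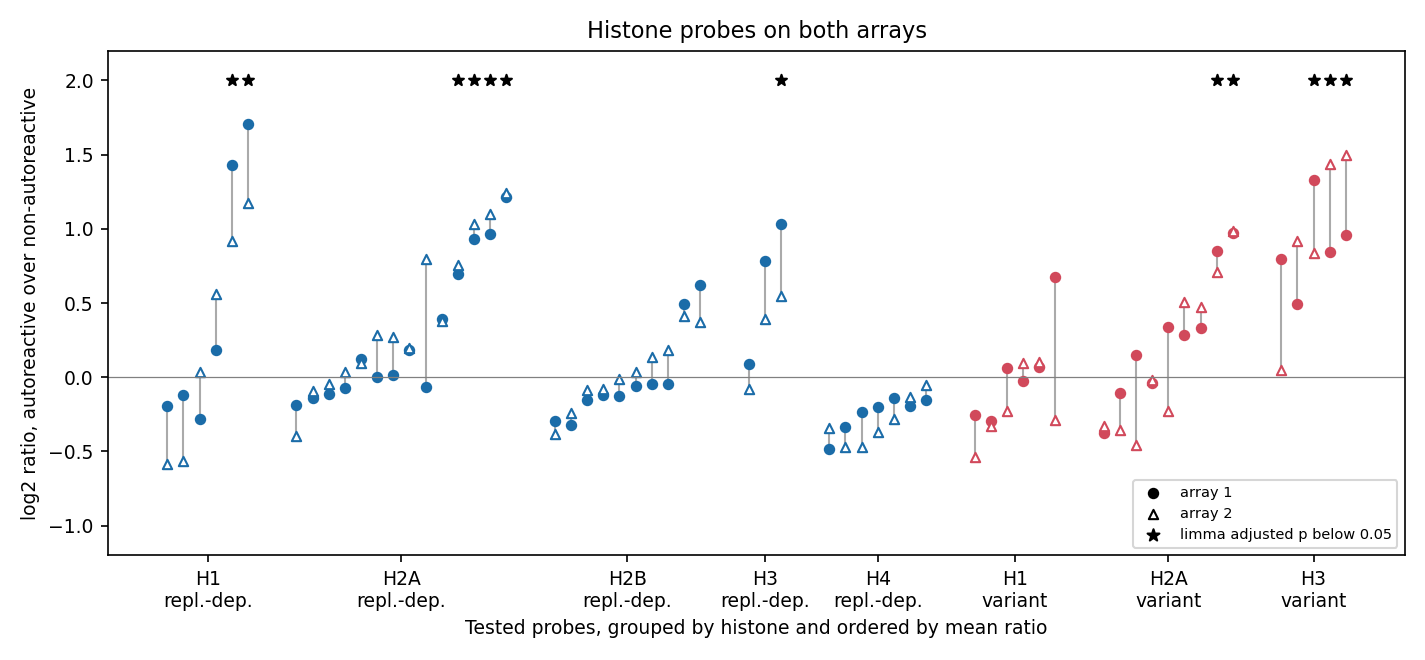
Log2 ratio of autoreactive over non-autoreactive for each tested histone probe on array 1 (filled circles) and array 2 (open triangles), grouped by histone and ordered by mean ratio, with a star where limma's adjusted p was below 0.05. All 7 H4 probes lie below 0 on both arrays, all 5 variant H3 probes lie above 0 on both, and the linker probes spread from -0.39 to 1.44 in their means.

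Among the variants, higher calls fell on H2A.J, H2A.Z.2 and H3.3, at 5 of 20 probes, with 0 lower, beside 3.15% and 2.17% of all probes. All 5 were among the 9 variant probes brighter than a log2 level of 16, where 52.7% of all 260 probes were called higher. H3.3, the H3 that is placed outside replication, is encoded by H3f3a and H3f3b. H3f3a had 2 called probes, with mean ratios of 1.22 (limma adjusted p = 0.0147) and 1.14 (adjusted p = 0.0210), while its brightest probe gave 0.70 (adjusted p = 0.0535). At the first of these the levels were 16.76 and 16.91 in autoreactive and 15.80 and 15.41 in non-autoreactive cells. H3f3b had 1 called probe with a ratio of 1.08 (adjusted p = 0.0186), and its brightest probe, with ratios of 0.79 and 0.05 on arrays 1 and 2, was not called (mean 0.42, adjusted p = 0.255). All 5 probes of both genes were above 0 on both arrays, as were 8327 of all 22623 tested probes. With the deposited ratios the median of the 5 was 0.62 and none was called. The deposited ratios of the brightest probes were below 0 on 1 array each, at -0.06 on array 1 for H3f3a and -0.45 on array 2 for H3f3b. After centring by brightness the median of the 5 was 0.22, none was called, and the brightest probes turned to -0.18 for H3f3a and -0.45 for H3f3b.

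H2afj, which encodes H2A.J, had levels of 17.32 and 17.32 in autoreactive and 16.35 and 16.33 in non-autoreactive cells at its brightest probe, with a ratio of 0.98 ± 0.12 (limma adjusted p = 0.0118). Its dimmer probe, 1238 bases away in the files' coordinates, had levels of 10.92 and 11.01 against 10.63 and 10.50 and a ratio of 0.40 (adjusted p = 0.146). With the deposited values these were 0.45 and 0.41, and neither was called. After centring by brightness the brightest probe fell to 0.093 and the dimmer one was 0.37, again uncalled. H2afv, which encodes H2A.Z.2, had levels of 17.43 and 17.26 against 16.58 and 16.55 and a ratio of 0.78 (adjusted p = 0.0252), which became 0.18 with the deposited values and -0.08 after centring by brightness. H2afz, which encodes the related H2A.Z.1 found at promoters, had a ratio of 0.40 (adjusted p = 0.135), which turned to -0.10 with the deposited values and -0.41 after centring by brightness.

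H2afx, whose product is phosphorylated around DNA breaks, showed how much the bright range depends on the scaling. Its levels of 16.71 and 16.53 in autoreactive and 16.37 and 16.76 in non-autoreactive cells overlapped, and its ratio was 0.05 (0.34 and -0.23 on arrays 1 and 2; limma adjusted p = 0.874). The deposited ratio was -0.46 and not called, and the brightness-centred ratio was -0.81 and called lower (adjusted p = 0.0422), where 2.35% of all probes were called lower and 2.39% higher. The macroH2A1 gene H2afy, known from the inactive X chromosome, had ratios of -0.23, -0.15 and -0.03 on its 3 probes, and H2afy3 had -0.35, none of them called. The variant linker histones were also uncalled at 6 of 6 probes, 2 of which were lower at an unadjusted p below 0.05 and 0 higher, beside 11.3% and 11.8% of all probes. H1f0, known to accumulate in cells that have stopped dividing, had ratios of -0.08, -0.31 and -0.40, H1fx had 0.19 and 0.03, and H1foo, the oocyte linker histone, had 0.09.

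Several probes stood for 12 of the histone genes, and these did not always tell the same story. In 9 of the 12 all tested probes lay on the same side of 0, and in 6 the probes were a mix of called and uncalled. No gene had probes that differed by more than 1 on the log2 scale. Beside the called Hist1h2af probe at 0.98, the other probe of that gene, also brighter than 16, gave 0.19. Hist3h2a gave 0.73, 0.39 and -0.02 on 3 probes, the last of which lies on the opposite strand. Hist1h2bc gave -0.34 and 0.45 on probes that the files place at chr13:23058152-23058211 and chr13:21203334-21203393, too far apart for a gene of this kind, so the name of 1 of them is uncertain.

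**Figure D4:**
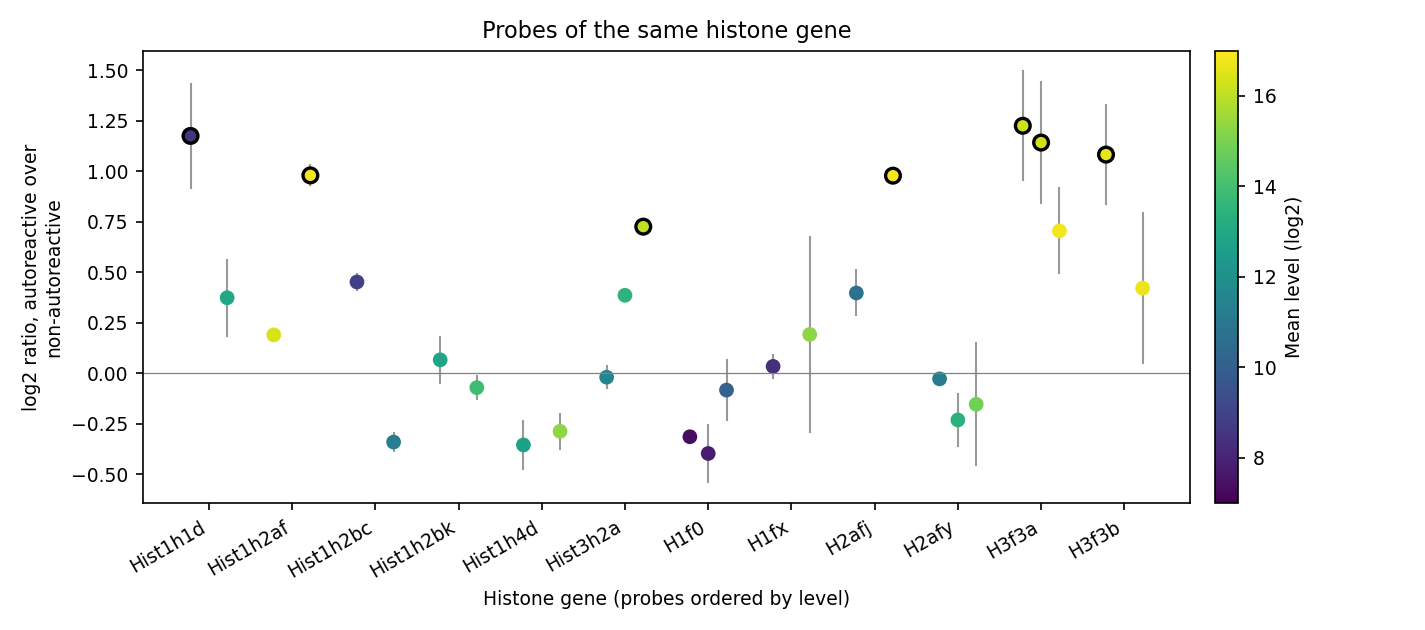
Mean log2 ratio of autoreactive over non-autoreactive for each tested probe of the 12 histone genes with several probes, coloured by the probe's mean log2 level, with lines that join the values of the 2 arrays and a black ring where limma's adjusted p was below 0.05. In 6 genes a ringed probe stands beside one that is not, as for Hist1h2af with 0.98 and 0.19.

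Genes that make and place histones were compared from lists chosen for their roles. Of 20 tested genes for transcription and 3' end processing of histone mRNA, 0 were called in either direction by limma, with 1 higher and 2 lower at an unadjusted p below 0.05 (1814 and 1861 of all 15112 genes), 0 called with the trended variance, and a median log2 ratio of -0.11. Slbp, which binds the stem-loop, had a ratio of 0.14 ± 0.12 (adjusted p = 0.530; -0.05 with the deposited values), and Npat, the coactivator of histone gene transcription, had -0.22 ± 0.13 (adjusted p = 0.360). The list's widest ratios were 0.48 for Cpsf2, a subunit of the cleavage complex, and -0.49 for Pou2f1, which encodes the octamer-binding factor Oct-1. These were followed by -0.38 for Srrt, which binds the RNA cap complex, and -0.30 for Ncbp1.

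Among 28 histone chaperones and deposition factors 1 was called higher and 0 lower, beside 3.48% and 2.61% of all genes tested, with a median of -0.15. The called gene was Asf1a, a chaperone that hands H3 and H4 to the deposition complexes, with log2 ratios of 0.61 and 0.95 and a mean of 0.78 ± 0.14 (limma adjusted p = 0.0334). Its deposited ratio was also 0.78 (adjusted p = 0.0704). At an unadjusted p below 0.05, 3 genes of this list were higher and 3 lower, beside those 1814 and 1861 of 15112 genes. Npm1 at 0.58, Hjurp, the chaperone of centromeric CENP-A, at -0.49 and Ep400 at -0.37 were not called. Of 32 S phase and replication genes 0 were called in either direction, with 2 higher and 5 lower at an unadjusted p below 0.05 (again beside 1814 and 1861 of 15112 genes), 0 called with the trended variance, and a median of -0.11. Pcna, the sliding clamp of DNA polymerase, came closest with 0.59 ± 0.13 (adjusted p = 0.0621), and its probe is in the bright range, with a deposited ratio of 0.12 and a ratio of -0.22 after centring by brightness. Ccne2, a cyclin of S phase entry, at 0.48 and Uhrf1 at -0.40 were not called. These lists had medians between -0.15 and -0.11, beside -0.071 for the replication-dependent histone genes.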

How the data were processed

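Both arrays' scanner files were used. Per the file headers, Agilent Feature Extraction 9.5.1.1 made the mean intensity of each spot and the median intensity of its local background. Per the file headers the same program also gave a log10 ratio (Cy5 over Cy3) after subtracting background and normalizing dyes, and this deposited ratio was turned to log2 for an alternative. The deposited series table holds the same ratios (largest difference 5e-10).

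Intensities were corrected with normexp (offset 50) and loess in limma 3.58.1 (R 4.3.3), with no weight for control and outlier spots. Spots of a probe were averaged. Log2 ratios were tested against 0 (lmFit, eBayes; two-sided; Benjamini-Hochberg over 22623 probes; prior degrees of freedom 5.08), and channel levels were scaled by Aquantile. The number of arrays, 2, limits the precision. The procedure was tested on simulated data. RefSeq (GRCm38.p6) gave names, and promoters for 37 of 47 histone genes. Figures were drawn with matplotlib 3.10.9.

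The members, lists and rule for named genes were chosen with earlier results of these data known. Named are histone genes with a called probe, every variant gene, the 8 largest and 4 smallest absolute ratios per class, up to 4 members of each other list, H2-Ea, Slbp and Npat. Hist1h2ab, Hist1h4a, Hist4h4, Hist1h2bc, Hist1h2be, Hist1h1a, Hist1h1b and Hist1h1e were added to these where a range or a class was described, after their values were seen. Of the genes this rule names, 1 is not reported here.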

Additional observations from a re-analysis of the deposited data

How the results depend on the processing

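Over all 15112 genes, 526 higher calls became 296 with the deposited ratios, 9922 with median centring, which moved the median of all genes to 0.58, and 106 with channels fitted separately. The 395 lower calls became 244 without the filter on dim probes and 69 with separate channels. The 6 higher replication-dependent genes became 1 with the deposited ratios, 1 with separate channels, 1 after centring by brightness, 1 among probes up to log2 16 and 29 with median centring (median 0.89). The 2 higher variant genes became 0 with the deposited ratios (median -0.074), 0 with separate channels, 0 after centring by brightness (median -0.12, with 1 gene, H2afx, lower), 0 up to log2 16, 10 with median centring (median 1.47), and 5 probes when each probe was counted on its own. Both brightness alternatives were chosen after seeing the data. With median centring the ratios of H1f0 (0.46), H2afy (0.97), Hist1h2bk (0.91), Hist3h2bb (0.99), Pou2f1 (0.41), Ncbp1 (0.53), Ep400 (0.44), Uhrf1 (0.84), Npat (0.42), Srrt (0.39) and Hjurp (0.38) turned positive. After centring by brightness those of H2afv (-0.078), H2afx (-0.81), Hist2h3c1 (-0.077), H2afz (-0.41), H3f3a (-0.18), H3f3b (-0.45), Hist1h3d (-0.13) and Pcna (-0.22) turned negative, and Hist3h2bb turned to 0.018. The causes were not tested. With the deposited ratios 6 single-gene values changed side. Of 454 single-gene values with a test, 100 kept a call, 41 lost it, 30 gained it and 283 had none in either setting, and 26 changed side, all under these 3 settings. No paired analysis was possible because the labels number the autoreactive pools only, beyond the pairing of channels within an array, which the ratio holds; the separate-channel fit, with no replicate block, drops that pairing. Single arrays gave 86 values without a test, of which 8 changed side, none of them called with both arrays.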

Other observations

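By genomic cluster, the Hist1 group, the largest, had 4 called of 28 tested probes and a median log2 ratio of -0.03. The Hist2 group had 2 called of 6 and a median of 0.01, the Hist3 group 1 of 5 and 0.39, and the single Hist4 probe had -0.10. Of all tested probes 3.15% were called higher. Apart from those of Hist1h1c and Hist1h1d, the called probes of these groups were brighter than a log2 level of 16. Among all probes that bright, 52.7% were called higher. Of 5 tested genes for centromeric and testis proteins outside the naming rule, 1 was called higher, beside 3.48% of all genes tested. Prm1, the protamine that replaces histones in sperm, had log2 ratios of 2.78 and 2.82 (mean 2.80 ± 0.12, limma adjusted p = 0.000768). Cenpa, the H3 of centromeres, had 0.14, Tnp1, a transition protein of spermatids, 0.14, and H2al2a, a testis H2A, 0.38. None of these 3 was called.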
